A study of Apostichopus japonicus with 3 samples.

Results

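Transcripts of antioxidant and glutathione enzymes were followed through summer dormancy in intestine of Apostichopus japonicus, a sea cucumber that stops feeding in the warm season. Members were isotigs, the assembled transcript sequences to which reads were aligned, whose best protein match names a superoxide dismutase, catalase, peroxiredoxin, glutathione enzyme, thioredoxin, glutaredoxin, glutamate-cysteine ligase, peroxidasin or methionine sulfoxide enzyme, leaving out disulfide isomerases. This text rule gave 54 of 20712 isotigs. The series holds 3 messenger RNA libraries, 1 from intestines without aestivation, 1 from deep aestivation and 1 from arousal after aestivation, and the labels give no treatment, strain or age. Each stage drew on at least 15 animals. The sources used here do not say whether RNA of several animals went into 1 library.

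Superoxide dismutases turn superoxide into hydrogen peroxide, which catalase, peroxiredoxins and glutathione peroxidases then break down. Glutathione is a small thiol peptide: transferases attach it to reactive or foreign compounds, and reductases return oxidised glutathione and thioredoxin to their working forms at the cost of NADPH. In animal guts these enzymes meet both oxidants made by the tissue and compounds taken in with food.

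Uniquely aligned reads numbered 1.022 M (mega) without aestivation, 0.893 M at deep aestivation and 0.945 M at arousal. With 1 library per stage no test between stages was possible, so each difference compares 2 libraries and has no replicate check. Folds are ratios of read shares with an exact 95% conditional binomial interval. RPKM is reads per kilobase of isotig and per 1 M aligned reads. A difference is written as beyond counting error where RPKM + 0.5 differed at least 2-fold (1 on the log2 scale) and an exact interval at an error rate of 0.001 excluded equal shares. This was asked of every isotig whose mean RPKM over the libraries was 1 or more, and the 0.5 makes the log2 ratio of isotigs with few reads smaller. The names of the deposited tables give non-aestivation and arousal the other way round from the sample labels. Values here follow the labels. With the table names followed instead, the values of non-aestivation and arousal would trade places in every comparison: each fold of deep aestivation against one of them would belong to the other, and each fold between them would turn round. Statements that deep aestivation lay below or above both other libraries hold either way, and all others rest on the labels. The gut markers (51 isotigs, 6 of 8 names matched) held 0.379%, 0.699% and 0.728% of reads in stage order. Within them trypsin matches (1415, 1755 and 348 reads) and alpha-amylase matches (15, 74 and 17) fell from deep aestivation to arousal. Aminopeptidase, carboxypeptidase, maltase and sucrase matches rose there. Muscle markers (45 isotigs) held 0.219%, 0.168% and 0.150%, and gonad markers (10 isotigs, 2 of 4 names) 0.0666%, 0.178% and 0.279%. Of the gonad reads, 666, 1560 and 2618 lay on vitellogenin matches and 15, 27 and 18 on bindin matches. The vitellogenin matches include isotig14304, itself a member, so the gonad list is no independent measure for it. Neuronal markers (34) held 0.0790%, 0.124% and 0.0891%, and coelomocyte markers (8 isotigs, 2 of 4 names) 0.0260%, 0.0263% and 0.0234%. The names within these lists differed as well. Acetylcholinesterase matches, 22 of the 34 neuronal isotigs, had 496, 839 and 749 reads, and acetylcholine receptor matches 272, 194 and 53. Profilin matches had 157, 78 and 80 reads, and arylsulfatase matches 109, 157 and 141. Titin matches, 26 of the 45 muscle isotigs, had 1098, 616 and 492 reads. Myosin heavy chain matches had 452, 398 and 406 reads, and twitchin matches 92, 129 and 90. Calponin matches had 343, 192 and 242 reads, tropomyosin matches 171, 118 and 146, and troponin matches 83, 46 and 37. Among the names that matched 0 isotigs were vasa, nanos, amassin, chymotrypsin and intestinal fatty acid binding protein. Their part in the results below was not tested. In whole tissue, fewer cells of a type and less RNA per cell cannot be told apart.

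Glutathione S-transferases were low in the deep aestivation library and stood near their non-aestivation level again in arousal, while catalase and mitochondrial manganese superoxide dismutase were highest in arousal and a copper/zinc superoxide dismutase was lowest there. With the table names followed, these last extremes would fall in non-aestivation. In arousal over non-aestivation, the manganese enzyme and the most read catalase isotig stayed under 2-fold. The 54 members took 0.353% of non-aestivation reads (95% exact binomial interval 0.342 to 0.365). Their share was 0.285% during deep aestivation (0.274 to 0.297), and 0.535% at arousal (0.520 to 0.550). These shares depend on isotig14304, a vitellogenin match described below. Without it they were 0.312%, 0.176% and 0.368% in stage order. Deep aestivation was then 1.77-fold below non-aestivation (1.67 to 1.88), against 1.24-fold with it. Arousal was 1.18-fold above non-aestivation (1.12 to 1.24), against 1.51-fold with it. Of the members, 52 passed the filter on low values. The other 2, isotig07642 and isotig10271, had 1 read each.

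Between deep aestivation and non-aestivation, 14 of the 52 members were lower beyond counting error, where 4.06% of all 18352 isotigs that passed the filter were lower. A single member was higher, where 5.19% of all isotigs were. From deep aestivation to arousal 13 members were higher (3.37% of all isotigs) and 1 was lower (5.31%). Both comparisons share the deep aestivation library. Between arousal and non-aestivation, 4 members were higher (3.84% of all isotigs) and 5 lower (5.21%), counts that stand closer to those of all isotigs. Deep aestivation was beyond counting error below both other libraries for 8 members (1.16% of all isotigs) and above both for 0 (1.95%). Without regard to size, deep aestivation had the lowest of the 3 RPKM values for 34 of the 52 members, against 25% of all isotigs. It had the highest for 4 members, against 42.2% of all isotigs. Most of the members called lower in deep aestivation were glutathione S-transferases. Of the 30 other members that passed the filter, 2 were lower and 1 higher than without aestivation. From deep aestivation to arousal 3 of the 30 were higher and 1 lower. Deep aestivation had the lowest RPKM for 15 of them. The summed reads of all 32 others, isotig14304 included, were 1.23-fold higher in deep aestivation than without aestivation (1.16 to 1.31).

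Depth sets which members could be called. A read count of 10 to 13 over both libraries, all in 1 of them, is the least that can pass, and 8 to 16 members had fewer reads than this, depending on the comparison and direction. Among the 17 members with at least 100 reads over the 3 libraries, 8 were lower in deep aestivation than without aestivation (13.3% of 3657 isotigs of that depth) and 10 were higher in arousal than in deep aestivation (11.3%). Of these 17, 6 were below both other libraries in deep aestivation (4.84%).

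The median log2 ratio of deep aestivation over non-aestivation was -0.61 over the members and 0.16 over all isotigs that passed the filter. For arousal over deep aestivation the medians were 0.79 and -0.16, and for arousal over non-aestivation 0.07 and -0.04. Glutathione S-transferases had medians of -1.67, 1.57 and -0.10 in this order, and the remaining 30 members -0.29, 0.51 and 0.27. Median-ratio scaling of the libraries shifts the median of all isotigs by -0.12 in deep aestivation over non-aestivation and by 0.16 in arousal over deep aestivation, and it turns the split of all calls from 952 higher and 745 lower to 721 and 954 in the first and from 619 and 975 to 839 and 732 in the second. For arousal over non-aestivation, the split of 704 higher and 956 lower became 891 and 744 when the 20 most abundant isotigs were left out of the totals.

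**Figure D1:**
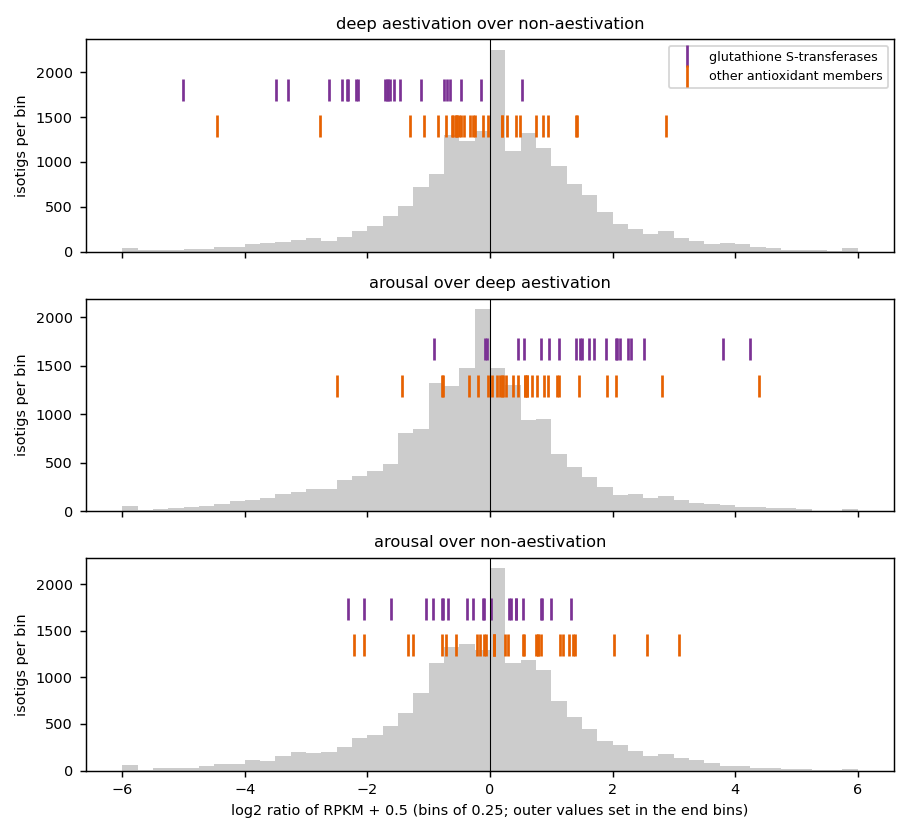
Log2 ratio of RPKM + 0.5 for each comparison, with all 18352 isotigs that passed the filter as grey bars, the 22 glutathione S-transferases as purple marks and the 30 other members as orange marks. In deep aestivation over non-aestivation nearly all purple marks lie left of 0 (median -1.67), and in arousal over deep aestivation most lie right of it (1.57), while the third panel has them on both sides (-0.10).

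The glutathione S-transferases are the largest family of the set, with 22 isotigs. These enzymes join glutathione to electrophilic compounds, the step that marks them for export from the cell. Together they had 1699 non-aestivation reads, 487 deep aestivation reads and 1742 arousal reads, or 0.166%, 0.0546% and 0.184% of reads. Deep aestivation was thus 3.05-fold lower than non-aestivation (95% interval 2.75 to 3.38), and arousal was 3.38-fold higher than deep aestivation (3.06 to 3.74) and 1.11-fold higher than non-aestivation (1.04 to 1.19). In deep aestivation 12 of the 22 were lower than in non-aestivation (4.06% of all isotigs), 0 were higher (5.19%) and 10 were neither. In arousal over deep aestivation 10 were higher (3.37%), 0 lower (5.31%) and 12 neither. Deep aestivation had the lowest RPKM of the 3 libraries for 19 of the 22, against 25% of all isotigs.

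Among the soluble transferases, isotig14824, a match to a nematode glutathione S-transferase 1, had the highest non-aestivation level. It had 391, 68 and 223 reads, or 263, 52.4 and 162 RPKM, in non-aestivation, deep aestivation and arousal. It was 5.02-fold lower in deep aestivation than without aestivation (3.87 to 6.60) and 3.10-fold higher in arousal than in deep aestivation (2.35 to 4.13). Its arousal level lay below that of non-aestivation without passing 2-fold (1.62-fold lower, 1.37 to 1.92). The alpha class isotig08777 had 348, 95 and 326 reads (173, 54.2 and 176 RPKM), which is 3.20-fold lower (2.54 to 4.06) and then 3.24-fold higher (2.57 to 4.12). Its levels in the outer libraries differed by less than counting error, 1.01-fold (0.869 to 1.18). Omega 1 (isotig21949), of a class that in vertebrates has thioltransferase activity, had 237, 44.1 and 219 RPKM from 160, 26 and 137 reads. Deep aestivation was 5.37-fold lower than non-aestivation for it (3.54 to 8.48), and arousal was 4.98-fold above deep aestivation (3.26 to 7.89).

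Alpha class isotigs were lower in deep aestivation than without aestivation in all 3 cases (4.06% of all isotigs). All 3 have the same best match, so they may not be separate genes. Besides isotig08777, isotig08778 had 39, 7 and 17 reads (25.5, 5.24 and 12 RPKM), and isotig17015 had 17, 0 and 9 reads. With 0 reads set to a floor of 3, the last was 4.95-fold lower in deep aestivation than without aestivation. This value leaves out the counting error of the 17 reads and is no lower limit. Neither passed the criterion in arousal over deep aestivation. The class sum was 404, 102 and 352 reads, 3.46-fold lower in deep aestivation (2.78 to 4.34) and 3.26-fold higher in arousal (2.61 to 4.11).

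Sigma class transferases, which in vertebrates include the prostaglandin D synthase of immune cells, had 8 isotigs. Of these, 3 were lower in deep aestivation than without aestivation (4.06% of all isotigs). Of the 8, 6 have the same best match, these 3 among them. The clearest V-shaped pattern was that of isotig23944, with 41, 11 and 68 reads (71.5, 22.0 and 128 RPKM), 3.25-fold lower (1.64 to 7.02) and then 5.84-fold higher (3.07 to 12.3). By contrast isotig08751 had 31, 2 and 5 reads (15.8, 1.17 and 2.75 RPKM) and was lower than non-aestivation in arousal as well (5.73-fold, 2.21 to 18.9). The third, isotig10143, had 77, 13 and 37 reads (75.1, 14.5 and 39.0 RPKM), 5.17-fold lower in deep aestivation (2.85 to 10.2) and 2.69-fold above it in arousal without passing the criterion (1.40 to 5.51). The other 5 sigma isotigs had 0 to 8 reads per library and passed in no comparison. Summed, the sigma class had 176, 38 and 132 reads.

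Both theta class isotigs had their lowest value in deep aestivation. Isotig17656 had 46, 12 and 62 reads (45.5, 13.6 and 66.4 RPKM), 3.35-fold lower (1.74 to 6.94) and then 4.88-fold higher (2.61 to 9.95). For isotig11155, with 36, 11 and 45 reads (32.1, 11.2 and 43.4 RPKM), arousal over deep aestivation passed (3.87-fold, 1.97 to 8.29), and deep aestivation over non-aestivation did not (2.86-fold lower, 1.42 to 6.22).

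Microsomal transferases are membrane proteins unrelated in sequence to the soluble ones, some of which also have peroxidase activity in mammals. Here the arousal library was the highest of the 3. Microsomal transferase 3 (isotig13637) had 169, 67 and 311 reads, or 86.0, 39.1 and 171 RPKM, 2.20-fold lower in deep aestivation (1.65 to 2.97) and 4.39-fold higher in arousal (3.36 to 5.80). Microsomal transferase 2 (isotig17791) had 169, 93 and 282 reads, or 170, 107 and 307 RPKM. It was 1.59-fold lower in deep aestivation (1.22 to 2.07), under the 2-fold limit, and 2.87-fold higher in arousal (2.26 to 3.66). The sum of the 3 microsomal isotigs in arousal was 1.89-fold that of non-aestivation (1.65 to 2.17), whereas the omega (0.889-fold, 0.710 to 1.11) and alpha (0.943-fold, 0.815 to 1.09) sums had intervals that include equal shares. Theta stood at 1.41-fold (1.05 to 1.91), sigma at 0.812-fold (0.643 to 1.02), and the isotigs with no class named at 0.851-fold (0.746 to 0.972).

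Isotigs of named matches without a class did not all follow this course. Isotig16538, a match to a sea urchin transferase, had 62, 49 and 145 reads (54.1, 49.0 and 137 RPKM). It was 1.10-fold lower in deep aestivation (0.747 to 1.64), an interval that includes equal shares, and in arousal it was higher than in both deep aestivation (2.80-fold, 2.01 to 3.95) and non-aestivation (2.53-fold, 1.87 to 3.46). Of a pair with the same nematode match, isotig09190 had 38, 7 and 33 reads and isotig09189 had 25, 3 and 5. The first was 4.45-fold higher in arousal than in deep aestivation (1.94 to 11.9), and the second was 4.62-fold lower in arousal than in non-aestivation (1.74 to 15.5), a call that was lost with upper-quartile scaling and without the 20 most abundant isotigs in the totals. The second omega isotig, isotig16629, with the same best match as isotig21949, had 19, 10 and 10 reads and passed in no comparison.

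**Figure D2:**
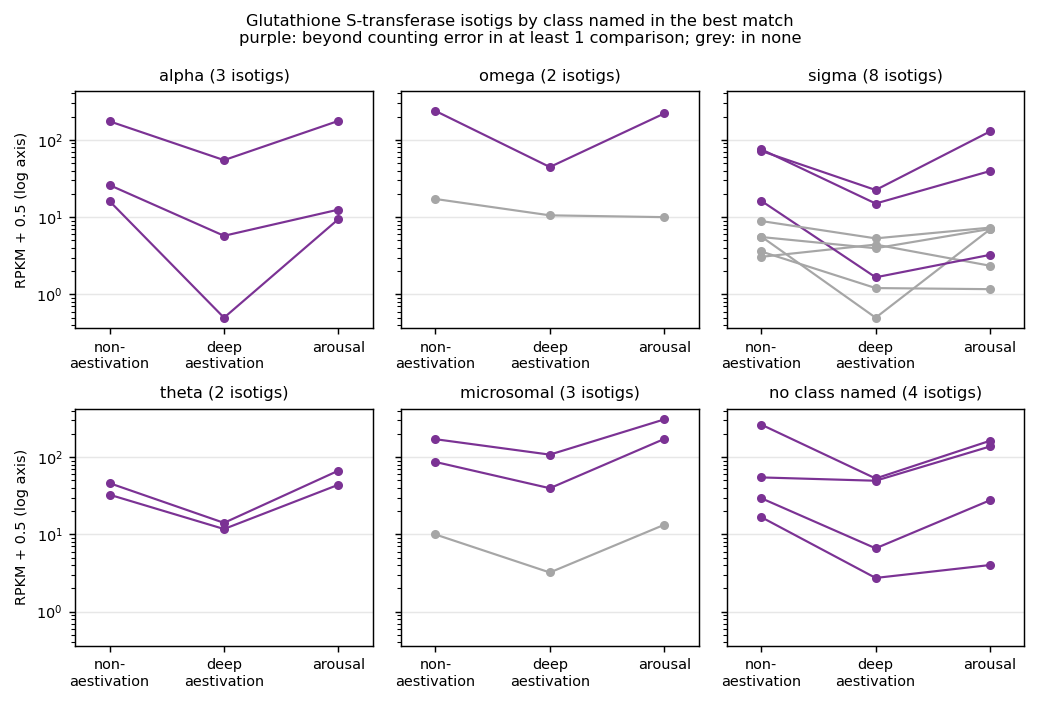
RPKM + 0.5 (log axis) of each of the 22 glutathione S-transferase isotigs in the 3 libraries, 1 panel per class named in the best match, with a line joining the values of 1 isotig. Lines of isotigs beyond counting error in at least 1 comparison are purple, and 19 of the 22 lines have their lowest point at deep aestivation.

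Superoxide dismutases had no common course. The mitochondrial manganese enzyme of this species (isotig14099) had 142, 81 and 236 reads, or 82.5, 53.9 and 148 RPKM. Deep aestivation was 1.53-fold lower than non-aestivation (1.16 to 2.04), under the 2-fold limit, and arousal was 2.75-fold higher than deep aestivation (2.13 to 3.59). Arousal was 1.80-fold above non-aestivation (1.45 to 2.23), under 2-fold as well. A second manganese isotig (isotig15621) had 13, 13 and 18 reads.

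The copper/zinc match isotig17129 went the other way in arousal, with 148, 157 and 29 reads, or 139, 168 and 29.4 RPKM. Its levels in non-aestivation and deep aestivation differed by 1.21-fold, within counting error (0.964 to 1.53), and arousal was 4.72-fold lower than non-aestivation (3.15 to 7.29). This was the single member lower in arousal than in deep aestivation. Reads covered 98.95% and 95.89% of its 1045 bases in the first 2 libraries and 73.88% in arousal. Copper/zinc superoxide dismutase works mainly in the cytosol, and a secreted form exists in many animals, and the match does not say which of the forms this isotig is.

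A pair of isotigs matched the copper/zinc superoxide dismutase already known from this species. Isotig07563 had 80, 28 and 29 reads (52.9, 21.2 and 20.8 RPKM) and was lower than non-aestivation both in deep aestivation (2.49-fold, 1.60 to 3.99) and in arousal (2.55-fold, 1.65 to 4.04). Isotig07564 had 21, 26 and 33 reads and passed in no comparison. Summed, they had 101, 54 and 62 reads, 1.63-fold lower in deep aestivation (1.16 to 2.32), so the 2-fold difference of isotig07563 is not held by the pair. Isotig09783, a partial match, had 1 to 2 reads.

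The member with the most reads was isotig14304, whose best match, at an E-value of 9.61e-07, is a sea urchin vitellogenin fused with superoxide dismutase. It had 417, 974 and 1574 reads, or 254, 679 and 1037 RPKM, 2.67-fold higher in deep aestivation than in non-aestivation (2.38 to 3.01) and 4.08-fold higher in arousal (3.66 to 4.56). Vitellogenin is a yolk and lipid carrier protein, and the files do not say which part of the fused protein the isotig matched. The 4 vitellogenin matches of the gonad markers, of which it is 1, had 666, 1560 and 2618 reads, and the part of gonad tissue in its course was not tested. It alone decides the family's sum: with it superoxide dismutases were 1.78-fold higher in deep aestivation than in non-aestivation (1.63 to 1.95), and without it they were 1.15-fold lower (0.991 to 1.34), with 405, 307 and 346 reads.

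Catalase, which splits hydrogen peroxide in peroxisomes, was highest in arousal. The long isotig06118 had 499, 402 and 791 reads, or 151, 140 and 259 RPKM, so deep aestivation was 1.08-fold lower than non-aestivation (0.949 to 1.24), within counting error. Arousal was 1.86-fold above deep aestivation (1.65 to 2.10) and 1.72-fold above non-aestivation (1.53 to 1.92), both under 2-fold. The shorter isotig06119 had 15, 11 and 85 reads (10.1, 8.52 and 62.2 RPKM), 7.30-fold higher in arousal than in deep aestivation and 6.13-fold higher than in non-aestivation (3.52 to 11.4). Its 85 reads in arousal lay on 134 of its 1446 bases, while the 791 reads of isotig06118 lay on 1812 of 3227. The short isotig thus had 7.3, 7.6 and 63.4 reads per 100 covered bases, and the long one 28.6, 23.3 and 43.7. The part of this pile-up in the 7.30-fold difference was not tested. Summed, catalase had 514, 413 and 876 reads, and arousal was 2.00-fold above deep aestivation (1.78 to 2.26).

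Peroxiredoxins reduce peroxides with a reactive cysteine. Peroxiredoxin 5 (isotig14528), which in mammals is found in mitochondria, peroxisomes and cytosol, was the most abundant, with 272, 145 and 172 reads, or 173, 106 and 119 RPKM. It was 1.64-fold lower in deep aestivation than without aestivation (1.33 to 2.02) and 1.46-fold lower in arousal (1.2 to 1.78), and passed 2-fold in no comparison. A mitochondrial thioredoxin-dependent peroxide reductase (isotig17856) had 17, 20 and 41 reads (17.1, 23.1 and 44.7 RPKM) and was 2.61-fold higher in arousal than in non-aestivation (1.45 to 4.90).

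Peroxiredoxin 6, a form with a single active cysteine that in mammals uses glutathione, was held by 3 isotigs of equal length, 1588 bases, with the same best match. Isotig05338 had 17, 0 and 15 reads. With the floor of 3 reads it was 4.95-fold lower in deep aestivation than without aestivation and 4.72-fold higher in arousal. These values leave out the counting error of the 17 and 15 reads and are no lower limits. Isotig05339 had 7, 4 and 18 reads and isotig05340 had 2, 4 and 5, and neither passed. At most 8.56% of these isotigs was covered in any library. Summed, they had 26, 8 and 38 reads, 2.84-fold lower in deep aestivation (1.25 to 7.25) and 4.49-fold higher in arousal (2.06 to 11.1).

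**Figure D3:**
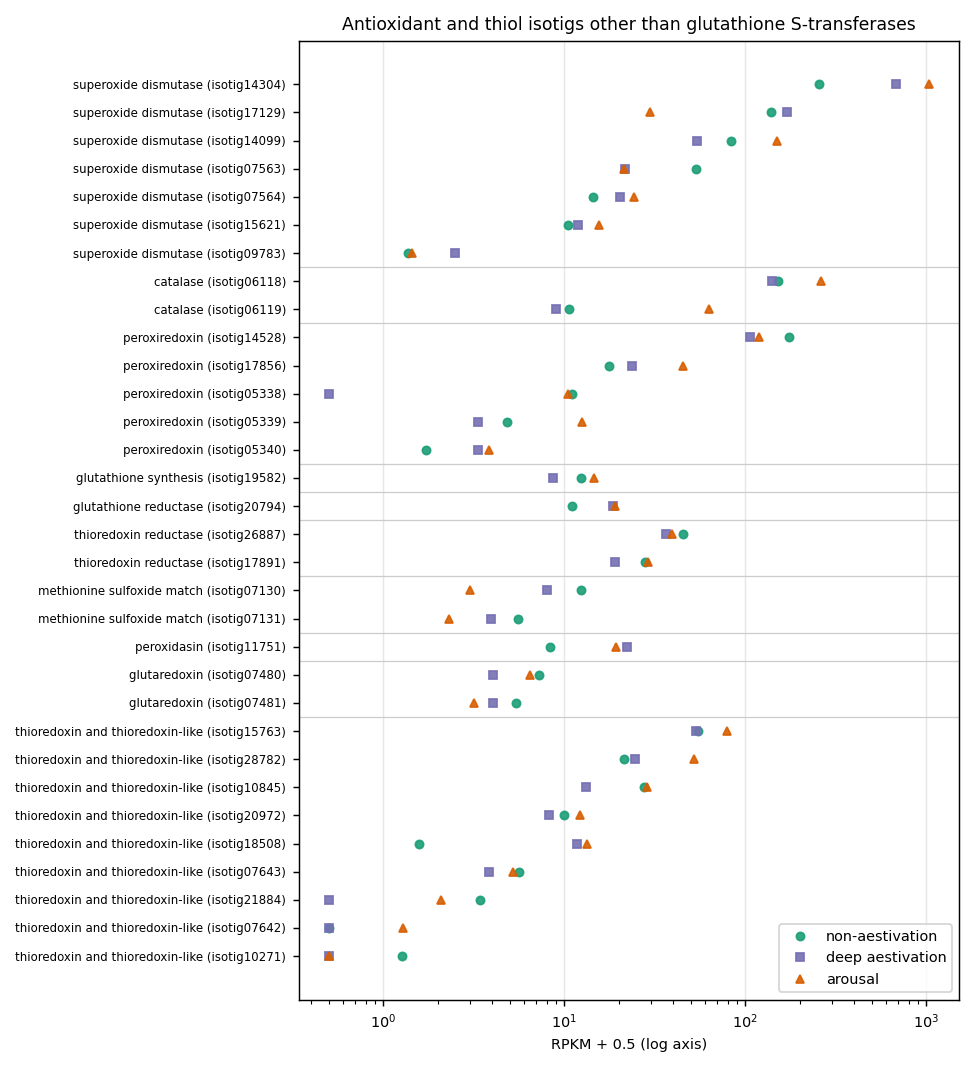
RPKM + 0.5 (log axis) in the 3 libraries for the 32 members that are no glutathione S-transferase, grouped by family and ordered within it by mean RPKM. Catalase isotig06119 and superoxide dismutases isotig14099 and isotig14304 stand highest in arousal, and superoxide dismutase isotig17129 stands lowest there, at 29.4 RPKM.

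Enzymes that make and recycle glutathione were sparse. Glutathione synthetase, the second step of synthesis (isotig19582), had 10, 6 and 11 reads, and glutathione reductase (isotig20794) had 8, 12 and 13. The names glutamate-cysteine ligase and glutathione peroxidase matched 0 isotigs. At these counts even a 2-fold difference was not detectable: the interval of glutathione reductase in deep aestivation over non-aestivation ran from 0.646 to 4.84.

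No member of the thioredoxin (7 past the filter) and thioredoxin reductase (2) families was beyond counting error. Of all isotigs 3.37% to 5.31% were, depending on comparison and direction, so a count of 0 among so few is no result about them. The thioredoxin-dependent peroxide reductase is given above with the peroxiredoxins. Both thioredoxin reductase isotigs were lowest in deep aestivation, isotig17891 with 27, 16 and 26 reads and isotig26887 with 20, 14 and 16, and their sum was 1.37-fold lower than in non-aestivation (0.847 to 2.24). Thioredoxin 2 (isotig10845), in vertebrates the mitochondrial form, had 27, 11 and 26 reads (27.1, 12.6 and 28.2 RPKM). It was 2.14-fold lower in deep aestivation (1.03 to 4.79), which did not pass.

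Some thioredoxin matches name proteins of other work than oxidant removal. Thioredoxin domain-containing protein 5 (isotig15763), a folding protein of the endoplasmic reticulum, had 69, 59 and 93 reads, and the 3 isotigs of domain-containing protein 9 had 14, 11 and 23 together. The domain-containing 11 match (isotig18508) had 1, 9 and 11 reads, with an interval of 1.43 to 452 for its 10.3-fold difference in deep aestivation. Isotig21884, a match to a sea urchin protein listed as intermediate chain 1 as well as thioredoxin domain-containing protein 3, had 2, 0 and 1 reads. As a group the 9 isotigs had 121, 95 and 162 reads, and the arousal sum was 1.61-fold that of deep aestivation (1.24 to 2.10).

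Glutaredoxins reduce disulfides with glutathione. The pair of isotigs matching glutaredoxin-related protein 5, a mitochondrial iron-sulfur cluster protein, had 11, 5 and 9 reads (isotig07480) and 8, 5 and 4 (isotig07481), too few for a difference. Peroxidasin (isotig11751), a secreted peroxidase that in animals crosslinks basement membrane collagen, had 5, 12 and 11 reads, 2.75-fold higher in deep aestivation with an interval that includes equal shares (0.901 to 9.96).

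Both methionine sulfoxide matches name MICAL-1, which oxidises methionines of actin and so disassembles filaments; it is not a repair reductase. Isotig07130 had 36, 20 and 7 reads (11.9, 7.58 and 2.51 RPKM) and was 4.75-fold lower in arousal than in non-aestivation (2.09 to 12.7). Isotig07131 had 15, 9 and 5 reads and did not pass. Reads covered at most 8.73% of isotig07130.

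**Figure D4:**
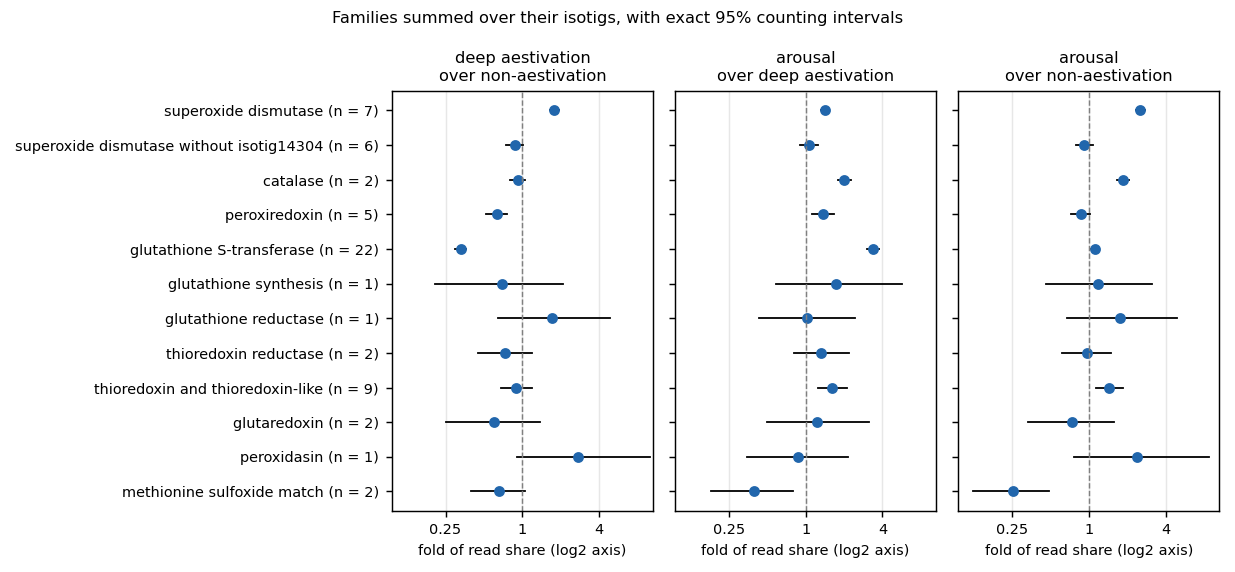
Fold of the summed read share of each family (points, log2 axis) with its exact 95% counting interval (lines) in the 3 comparisons, where n is the number of isotigs. Glutathione S-transferases lie at 0.328 in deep aestivation over non-aestivation and at 3.38 in arousal over deep aestivation, and the superoxide dismutase point moves from 1.78 to 0.868 in the first comparison without isotig14304.

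Whether members with the same best match are copies or variants of 1 gene was not tested. Of the 54, 25 share their best match with another member, in 9 groups, and the members have 38 distinct best matches. The authors counted uniquely aligned reads, so a read common to near-identical isotigs is in the count of neither. Its part in the differences was not tested. An isotig with 1 read was covered over 49 bases in each library. Members with at least 50 reads and a shared match (9) had a median highest coverage of 43.4%, against 89.2% for the 17 whose match was not shared and 78.0% for 6382 isotigs of that depth, with a range of 8.73% to 97.7% in the first set. With isotigs of the same best match summed before the call, an alternative added after the data were seen, 7 of 37 member matches were lower in deep aestivation than without aestivation (4.08% of all units so formed) and 13 were higher in arousal than in deep aestivation (3.30%). All 7 were among those 13, so 7 matches were below both other libraries in deep aestivation (1.18%).

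**Figure D5:**
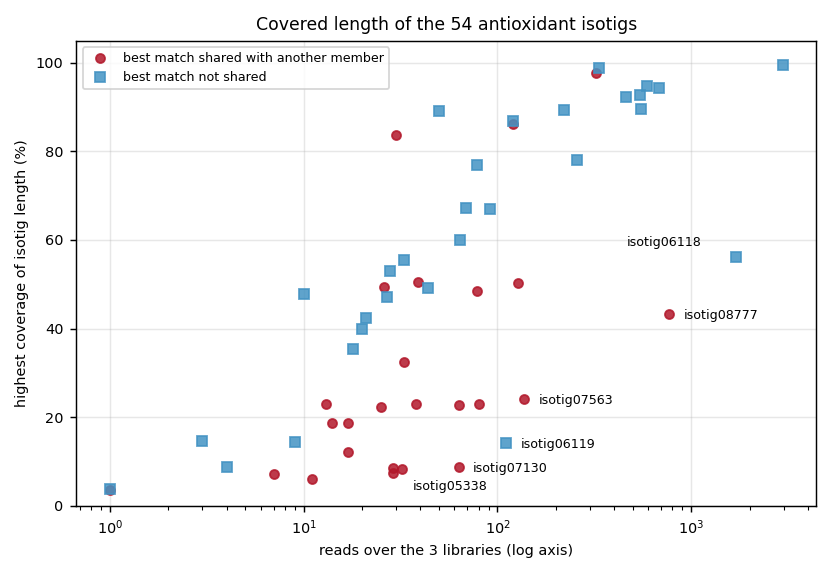
Highest share of the isotig's length covered by reads in any library (percent) against reads over the 3 libraries (log axis) for the 54 members. Red circles share their best match with another member and blue squares do not, and isotig06119 had a highest coverage of 14.2% and isotig05338 of 8.31%.

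A wider list of 19 isotigs that are no members covered the supply of NADPH and cysteine, redox control and oxidant production. In deep aestivation over non-aestivation 2 were higher (5.19% of all isotigs) and 0 lower (4.06%) beyond counting error. In arousal over deep aestivation 2 were higher (3.37%) and 1 lower (5.31%), and in arousal over non-aestivation 3 were higher (3.84%) and 0 lower (5.21%). With 19 isotigs these counts are too small to set the list apart from all isotigs. Names of ferritin, metallothionein, heme oxygenase and biliverdin enzymes matched 0 isotigs.

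The 5 isotigs of NADPH supply had 702, 436 and 847 reads together, 1.41-fold lower in deep aestivation (1.25 to 1.59) and 1.84-fold higher in arousal over deep aestivation (1.63 to 2.07). Glucose-6-phosphate dehydrogenase (isotig08925), the entry enzyme of the pentose phosphate pathway, had 111, 87 and 189 reads and was 2.05-fold higher in arousal than in deep aestivation (1.58 to 2.68). It was the only isotig of this group that passed.

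Cysteine dioxygenase (isotig15022), which oxidises cysteine and so withdraws it from glutathione synthesis, had 15, 77 and 31 reads, or 10.4, 61.4 and 23.4 RPKM. It was higher in deep aestivation than in both other libraries, 5.88-fold above non-aestivation (3.35 to 11), and arousal was 2.63-fold lower again (1.71 to 4.13). Gamma-glutamyltransferase 1 (isotig10337), which begins the breakdown of glutathione outside the cell, had 45, 78 and 164 reads (38.1, 75.6 and 150 RPKM) and was 3.94-fold higher in arousal than in non-aestivation (2.82 to 5.61).

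Among regulators, a match to nuclear factor erythroid 2-like 1 (isotig06129), of a family of transcription factors that in mammals bind the promoters of antioxidant genes, had 3, 27 and 34 reads. It was 10.3-fold higher in deep aestivation (3.17 to 53.1) and 12.3-fold higher in arousal (3.86 to 62.4) than in non-aestivation. The neighbouring isotig06127 and isotig06128, named after their values were seen, matched nuclear factor erythroid derived 2. Isotig06127 had 170, 241 and 243 reads and isotig06128 had 6, 11 and 11, and neither passed in any comparison. For isotig06127 deep aestivation was 1.62-fold above non-aestivation (1.33 to 1.99). The 3 matches to kelch-like ECH-associated protein 1, which in mammals inhibits a related factor of that family, had 0 to 10 reads per library. Acyl-CoA oxidase (isotig14761), a peroxisomal source of hydrogen peroxide, had 84, 91 and 241 reads and was 3.10-fold higher in arousal than in non-aestivation (2.41 to 4.03). Dual oxidase A (isotig13477) had 1066, 1223 and 717 reads and passed in no comparison.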

How the data were processed

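Messenger RNA of intestine was sequenced in 3 libraries, 1 per stage. Per the labels' protocols, RNA was DNase-treated, enriched with oligo(dT) beads, broken into pieces of about 200 bp and primed with random hexamers. The submitters' processing notes name CASAVA 1.5. Of aligner, assembler and strand setting the labels say nothing. Per the file headers, the authors deposited for each isotig a count of uniquely aligned reads, the percent of its length covered and an RPKM value, which was checked against count, length and library total. Isotigs with 0 reads were taken as 0. Members and families were found by the text of the best match. Members and lists were chosen with earlier results of these data known. Named isotigs are the most read member of each family, every member called in a comparison, the 3 that the rule of selection names, and the called isotigs of the wider list. Other members are given by their reads, and the classes of transferases and the sums over shared matches were formed after the values were seen. Calls were made on the whole table with Python 3.11.15, NumPy 2.4.6, pandas 2.3.3 and SciPy 1.17.1 and tested on simulated data. Reads carry no molecular identifiers and may be PCR copies, so every interval and call takes in counting error and nothing else. Folds with the floor leave out the counting error of the larger count. Alternatives changed the scaling, pseudocount, filter, interval and fold limit.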

Additional observations from a re-analysis of the deposited data

How the results depend on the processing

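Each stage has 1 library of at most 1.022 M reads, so neither replicates nor a count model were available, and isotigs with few reads limit what could be seen. No paired analysis was possible because each group has 1 sample. Over the alternatives, 7 to 16 members were lower in deep aestivation than without aestivation, 13 to 16 higher in arousal than in deep aestivation, and 7 to 11 below both other libraries in deep aestivation. The counts that moved by over 1.5 times were these: with isotigs of the same best match summed, which leaves fewer units, 7 were lower in deep aestivation than without aestivation and 2 lower in arousal than in non-aestivation, and at 1.5-fold 8 were higher in arousal than in non-aestivation. Sums beyond their counting interval follow from the scaling itself. With median-ratio scaling, superoxide dismutases were at 1.61 in deep aestivation over non-aestivation and 1.62 in arousal over deep aestivation, catalase at 2.3 in arousal over deep aestivation, and glutathione S-transferases at 0.296 and 3.87 in these comparisons. With upper-quartile scaling, arousal over deep aestivation was 1.57 for superoxide dismutases and 3.76 for the transferases. Without the 20 most abundant isotigs in the totals, arousal over non-aestivation was 2.80 and 1.23 for them. Without isotig14304, superoxide dismutases turned to 0.868 and 0.925 over non-aestivation in deep aestivation and arousal, and stood at 1.065 in arousal over deep aestivation. Among named isotigs, isotig09189 lost its call in arousal over non-aestivation with upper-quartile scaling and without the 20 most abundant isotigs, while scaling added calls for 4 named isotigs. Isotig06118 and isotig10143 gained one in arousal over deep aestivation with median-ratio and upper-quartile scaling, isotig11155 in deep aestivation over non-aestivation with median-ratio scaling, and isotig13637 in arousal over non-aestivation with each of the 3 scalings. A 99% interval added 3 calls and the 1.5-fold limit 9.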

Other observations

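Selenoproteins, several of which are redox enzymes in vertebrates, were looked at after the values were seen and are no members. The 16 isotigs with such a match had 1239, 917 and 1030 reads in non-aestivation, deep aestivation and arousal, a deep aestivation share 1.18-fold below that of non-aestivation (95% interval 1.08 to 1.29). Of the 15 that passed the filter, 0 differed beyond counting error between deep aestivation and non-aestivation, where 5.19% of all isotigs were higher and 4.06% lower, so a count of 0 among so few is no result about them. Selenoprotein H (isotig24808), a nuclear redox protein in mammals, had 314, 218 and 236 reads, and a selenoprotein W match (isotig14181) had 371, 266 and 224. Selenoprotein X (isotig15192), in mammals a methionine sulfoxide reductase, had 96, 73 and 56 reads. A selenoprotein P match (isotig06174), in mammals a secreted selenium carrier, had 31, 22 and 58 reads and was 2.49-fold higher in arousal than in deep aestivation (1.5 to 4.27). The other selenoprotein P isotigs had 15, 16 and 8 reads (isotig16820) and 1, 9 and 0 (isotig06172), and the sum of all 3, with 47, 47 and 66 reads, was 1.33-fold higher with an interval that includes equal shares (0.899 to 1.97).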
